A study of Mus musculus with 4 samples.

Results

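The cyclins and kinases that carry male germ cells through the meiotic divisions were followed as a set of 10 genes, *Ccna1*, *Ccnb1*, *Ccnb2*, *Cdk1*, *Cdc25c*, *Hspa2*, *Aurka*, *Aurkb*, *Aurkc* and *Plk1*. The genes were taken by symbol for their role, and all 10 were found among the 22311 gene symbols of the data, each under a single entry per sample. RNA came from whole testes of 24-day-old male mice, with 2 samples labelled rfx2-/- (mutant 1 and mutant 2) and 2 labelled wild type (control 1 and control 2). According to the study's methods the controls were heterozygous, and the mutant line descends from a single targeted embryonic stem cell clone, with a neomycin-resistance cassette in place of the exons for the DNA-binding domain. The labels give the strain as DBA, whereas the methods give a mix of 129/s6 and C57BL/6. Whether testes were pooled is not given in the sources used here, and the mutation was constitutive, present in germ and somatic cells alike.

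Entry into a meiotic division depends on cyclin-dependent kinase 1 (CDK1), which is inactive until it binds a cyclin and until CDC25 phosphatases strip the inhibitory phosphates added by WEE1 and PKMYT1. Once active, CDK1 works with Polo-like kinase 1 and the Aurora kinases to dismantle the synaptonemal complex, build the spindle and orient the chromosomes. In the testis these genes are read mainly in late spermatocytes, and the transcripts of several persist into spermatids. In whole-testis RNA, a smaller number of such cells and less RNA per cell cannot be told apart.

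Promoters are shown because B-type cyclins, *Cdk1* and other genes of the division phase are known to share CCAAT boxes, bound by the factor NF-Y, and a cell cycle genes homology region (CHR), here taken as TTTGAA. RefSeq promoters on build GRCm38.p6, running from 250 bases before to 50 after a start site, were available for 8 of the 10 genes and not for *Aurkb* or *Cdc25c*. Each sequence gives the 150 bases just upstream of the start site, read 5′ to 3′ on the strand of the gene, with matches to CCAAT or TTTGAA on either strand in capitals (ATTGG is CCAAT on the other strand). *Ccnb1* (chr13:100786487-100786636), *Ccnb2* (chr9:70421555-70421704), *Cdk1* (chr10:69352913-69353062) and *Aurka* (chr2:172370571-172370720) lie on the minus strand, and *Aurkc* (chr7:6995235-6995384), shown for contrast, on the plus strand.
Ccnb1: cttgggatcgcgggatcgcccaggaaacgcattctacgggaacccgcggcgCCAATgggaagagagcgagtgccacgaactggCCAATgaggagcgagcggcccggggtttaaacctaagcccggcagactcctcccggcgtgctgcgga
Ccnb2: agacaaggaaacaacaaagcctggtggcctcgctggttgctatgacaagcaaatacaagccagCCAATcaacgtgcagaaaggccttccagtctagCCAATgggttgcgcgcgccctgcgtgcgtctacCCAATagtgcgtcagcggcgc
Cdk1: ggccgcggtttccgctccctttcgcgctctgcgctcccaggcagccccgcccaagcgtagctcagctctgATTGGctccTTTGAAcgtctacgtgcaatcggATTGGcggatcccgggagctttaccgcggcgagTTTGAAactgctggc
Aurka: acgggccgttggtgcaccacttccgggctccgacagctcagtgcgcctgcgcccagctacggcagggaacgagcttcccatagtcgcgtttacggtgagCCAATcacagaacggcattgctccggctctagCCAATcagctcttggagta
Aurkc: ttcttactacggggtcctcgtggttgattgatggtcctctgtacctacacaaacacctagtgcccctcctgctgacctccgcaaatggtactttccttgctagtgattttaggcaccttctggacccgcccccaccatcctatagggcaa

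All 8 promoters held a CCAAT within the 300-base window, on either strand, as did 37.4% of the 32851 RefSeq promoters of that length. TTTGAA was present in 4 of the 8, those of *Ccnb2*, *Cdk1*, *Aurka* and *Plk1*, and in 17.9% of all promoters. The matches of *Aurka* (33 to 38) and *Plk1* (31 to 36) lay downstream of the start site. Those of *Ccnb2* lay at -167 to -162 and at 5 to 10, so of the 4 only *Cdk1* had TTTGAA within the 150 bases upstream. No other form of the CHR was searched for, so a promoter without TTTGAA is not shown to lack a CHR. None of the 8 held the X-box, the motif bound by RFX factors, without mismatch and with a gap of up to 3 bases between its arms, against 1.53% of all promoters. With so low a share, its absence from 8 promoters is no result about these genes. The paper predicted RFX2 sites with a weight matrix over longer promoter regions, which was not repeated here. The printed bases of *Aurkc* hold no CCAAT, and the other 4 share a spacing. CCAAT starts lay 32 bases apart in *Ccnb1*, in *Cdk1* and in *Aurka*, and the 3 boxes of *Ccnb2* were each 33 bases apart. A pair of CCAAT starts on 1 strand, 32 or 33 bases apart, was found in these 4 promoters and in 0.487% of all promoters; this spacing was looked for after the matches had been seen. A match is a description of letters and not a binding site, and *Aurkc* had its only CCAAT match downstream of the start site, at positions 25 to 29.

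**Figure D1:**
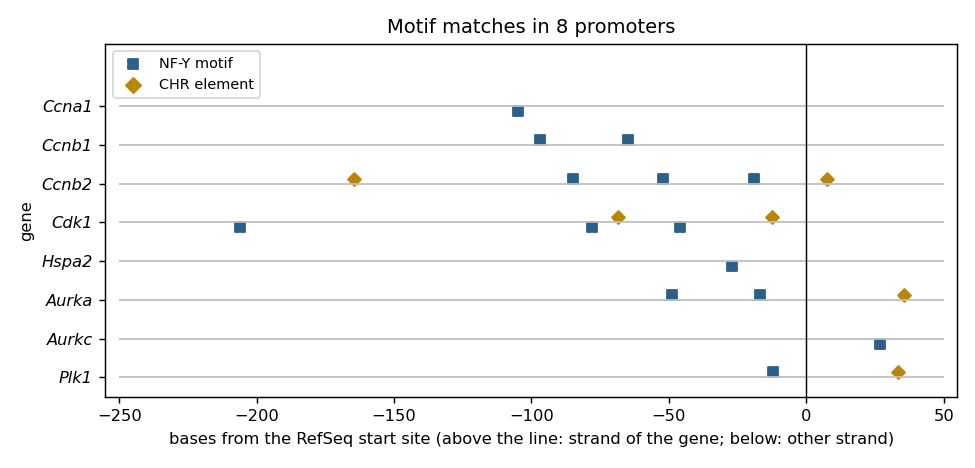
Positions of matches to CCAAT, the NF-Y motif (squares), and to TTTGAA, the form of the CHR element searched for (diamonds), in the promoters of 8 genes. Positions are in bases from the RefSeq start site. Marks above a line are on the strand of the gene and marks below it on the other strand. The 4 promoters of *Ccnb1*, *Ccnb2*, *Cdk1* and *Aurka* show squares at intervals of 32 or 33 bases.

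Values are FPKM, fragment counts scaled to gene length and to the number of mapped fragments, as the authors deposited them, so levels of different genes can be set side by side. The sample files held 22553 to 22563 entries, and the width of their confidence intervals corresponds to about 17200000 to 20300000 fragments per sample. That is an estimate and not the sequencing depth, for which the study reports larger numbers of reads. No germ, Sertoli, Leydig, peritubular or macrophage marker found in the data was under 0.1 FPKM in all samples. That does not show each cell type to be present in each sample. The paper reports that elongating spermatids were absent from mutant testes at a later age, so RNA of their markers is not a measure of such cells. Mutant 1 stood apart in spermatid RNA, with 10 elongating-spermatid markers summing to 1523 FPKM against 7081 in mutant 2, 8321 in control 1 and 5688 in control 2. *Rfx2* itself had 36.7 and 39.8 FPKM in the mutants and 123 and 89.4 FPKM in the controls, with a fitted log2 difference of -1.43 (limma, SE 0.19, Benjamini-Hochberg adjusted p = 0.00617). Its adjusted p by limma was 0.0607 without a filter on low values and 0.0840 with median-ratio scaling. In the other alternatives that kept every sample it was at most 0.0249. Over all 14 alternatives, described below, the log2 difference ran from -1.66 to -1.20. The paper found no RFX2 protein in mutant testis extracts by Western blot, and a mutant transcript that skips the deleted exons.

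The 10 genes spanned more than 2 orders of magnitude. *Hspa2* was by far the highest, at 615 and 623 FPKM in the mutants and 614 and 540 FPKM in the controls, which placed it 43rd of 22311 genes by mean level. It encodes a testis-enriched HSP70 chaperone that helps CDK1 assemble with cyclin B in spermatocytes. *Ccnb2*, *Aurka* and *Ccna1* formed a second tier, with means over the 4 samples of 113 ± 8.99, 105 ± 14.8 and 97.3 ± 14.3 FPKM (SD, n = 4). The ranges of neighbours in this tier overlapped, so their order is not resolved. *Plk1* followed at 45.2 ± 5.10 and *Cdk1* at 15.5 ± 1.59 FPKM, each apart from both neighbours in every sample. *Aurkb* (9.07 ± 1.61 FPKM) and *Ccnb1* (8.58 ± 0.915 FPKM) overlapped, and so did *Aurkc* (4.79 ± 1.36 FPKM) and *Cdc25c* (4.74 ± 1.84 FPKM) at the bottom. Behind the values of *Aurkc* stood about 86.6 to 186 fragments per sample, and behind those of *Hspa2* 38127 to 42441.

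**Figure D2:**
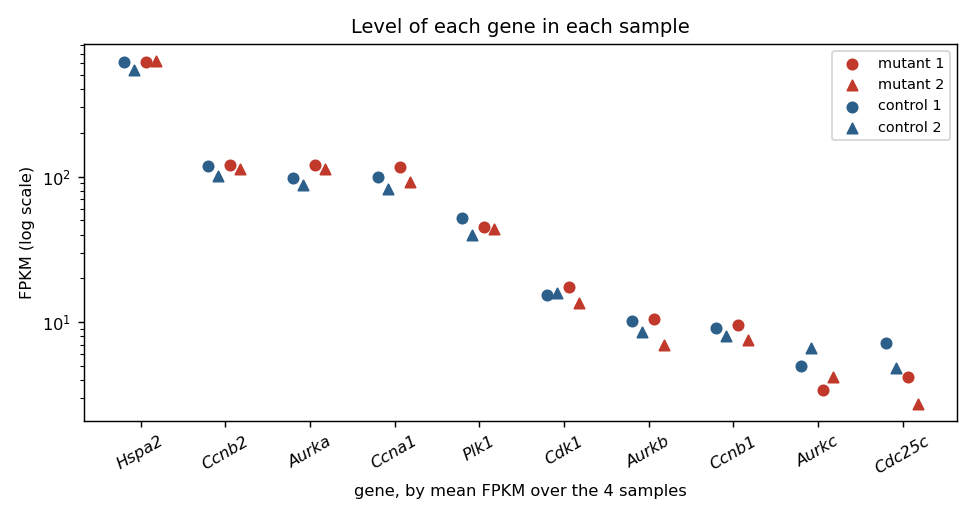
FPKM of each gene (log axis) in mutant 1 and 2 and control 1 and 2, with genes ordered by their mean over the 4 samples; each point is 1 sample. *Hspa2* lies at or above 539.5 FPKM in every sample and *Aurkc* and *Cdc25c* below 7.2 FPKM, and the mutant and control points separate for *Aurka*, *Aurkc* and *Cdc25c* and, by a hair, for *Hspa2*.

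To ask whether loss of RFX2 altered these genes, mutants and controls were compared by limma on log2(FPKM + 1) across the 12985 genes with at least 1 FPKM in at least 2 samples, and fold changes below are mutant minus control on that scale. None of the 10 genes, all of which passed this filter, had an adjusted p under 0.05. Across all genes tested 2.83% did, 2.52% as lower and 0.308% as higher in the mutants. At an unadjusted p under 0.05 the count was 1 of 10, *Cdc25c*, against 8.69% of all genes tested (6.68% lower and 2.01% higher). Log2 fold changes of the 10 genes had a median of -0.013, beside 0.032 for all genes tested. The 327 lower and 40 higher genes behind these percentages became 948 and 102 without mutant 2, 433 and 162 without mutant 1, 167 and 17 without control 1, and 213 and 13 without control 2, while none of the 10 genes was called in any of these 4 fits.

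Among the cyclins and their kinase, *Cdk1* (chr10:68799383-68815686 on build NCBIM37, as for the coordinates that follow), the catalytic subunit, had 17.4 and 13.5 FPKM in the mutants and 15.3 and 15.8 FPKM in the controls. The mutant values enclosed the control values, and the log2 difference was -0.019 (95% interval -0.47 to 0.43, adjusted p = 0.9999 from limma). *Ccnb1* (chr13:101548605-101556525), which encodes cyclin B1, gave 9.55 and 7.60 FPKM in mutants and 9.13 and 8.03 FPKM in controls. Again the groups overlapped fully, with a log2 fold change of -0.0071 (interval -0.50 to 0.48). *Ccnb2* (chr9:70255496-70269361), encoding the other main B-type cyclin, gave 121 and 112 FPKM in mutants against 118 and 100 FPKM in controls, a log2 fold change of 0.098 (interval -0.30 to 0.49). *Ccna1* (chr3:54849391-54858977) encodes the A-type cyclin that spermatocytes need to enter the first division. Its levels were 116 and 91.8 FPKM in mutants and 99.7 and 81.9 FPKM in controls, with mutant 2 below control 1, and its log2 fold change was 0.19 (interval -0.25 to 0.63). For *Ccnb1* the interval corresponds to a mutant-to-control ratio of FPKM + 1, not of FPKM itself, of 0.709 to 1.40. A difference of that size in either direction lies within what these 4 samples allow.

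Of the activators of CDK1, *Hspa2* (chr12:77505163-77507921) was nearly level. Control 1 (614.2 FPKM) lay just under mutant 1 (614.6 FPKM), which is within the counting error of either sample, and the log2 fold change was 0.10 (interval -0.39 to 0.60). *Cdc25c*, the phosphatase gene on chromosome 18, showed the widest difference of the set. It had 4.22 and 2.75 FPKM in the mutants and 7.17 and 4.81 FPKM in the controls. Both mutants lay below both controls, yet mutant 1 was closer to control 2 than to mutant 2, and the gap between the controls was wider than that between mutant 1 and control 2. Its mean in mutants was 58.2% of that in controls, and the fitted log2 difference was -0.64 (SE 0.27, 95% interval -1.27 to -0.014, unadjusted p = 0.0463, adjusted p = 0.549 from limma). Over 13 alternatives the log2 fold change ran from -0.89 to -0.39 and the adjusted p from limma between 0.172 and 0.9995. A gene model annotated on the opposite strand, *Gm3550*, lies within *Cdc25c*, and whether counting used strand is not given in the sources used here.

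The Aurora kinases had unequal values. *Aurka* (chr2:172181690-172196035), whose product acts at spindle poles, had 121 and 113 FPKM in mutants and 98.7 and 87.3 FPKM in controls. Both mutants were higher than both controls, at 1.26-fold the control mean, and the fitted log2 difference was 0.33 (SE 0.16, interval -0.054 to 0.71, adjusted p = 0.757 from limma). *Aurkb* (chr11:68859149-68865166) encodes the catalytic subunit of the chromosomal passenger complex in mitotic cells. Its values of 10.5 and 7.00 FPKM in mutants enclosed those of 10.2 and 8.60 FPKM in controls, and the log2 fold change was -0.12 (interval -0.67 to 0.44). *Aurkc* (chr7:6948154-6955656), the germ-cell paralogue that takes the same place in meiosis, gave 3.43 and 4.19 FPKM in mutants and 4.96 and 6.60 FPKM in controls. Here both mutants were lower, at 65.9% of the control mean, and the fitted log2 difference was -0.49 (SE 0.23, interval -1.03 to 0.049, adjusted p = 0.686 from limma). *Plk1* (chr7:129302951-129313389), the Polo kinase of centrosome maturation and spindle assembly, had 44.9 and 44.0 FPKM in mutants, both between the control values of 52.1 and 39.8 FPKM, and a log2 fold change of -0.035 (interval -0.45 to 0.38).

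Without mutant 1, the sample low in elongating-spermatid RNA, the log2 fold changes were -0.88 for *Cdc25c*, -0.38 for *Aurkc* and 0.28 for *Aurka*, and none of the 10 genes was called.

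Groups did not overlap for 4 of the 10 genes, *Cdc25c* and *Aurkc* with the mutants below and *Hspa2* and *Aurka* with the mutants above. Among all genes tested the groups did not overlap for 31.5%, with mutants below in 15.2% and above in 16.3%. The share of the 10 genes is near that background and is no result about them. Under 14 alternatives the signs of *Aurka*, *Aurkc*, *Ccna1*, *Cdc25c* and *Hspa2* held wherever a value could be had. For the 4 genes whose groups did not overlap, leaving out 1 sample cannot turn the sign. Changing the filter, the eBayes setting, the block or the entry per symbol leaves the estimate of a gene as it was. For these 4 genes the held sign therefore adds little to the non-overlap. With single samples left out, however, the log2 fold change of *Ccna1* ran from 0.022 (without mutant 1) to 0.35 (without mutant 2) and that of *Hspa2* from 0.010 (without control 2) to 0.20 (without control 1). In contrast, *Ccnb1*, *Ccnb2*, *Cdk1*, *Aurkb* and *Plk1*, all close to 0, each turned in 1 to 3 of the 14 alternatives.

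**Figure D3:**
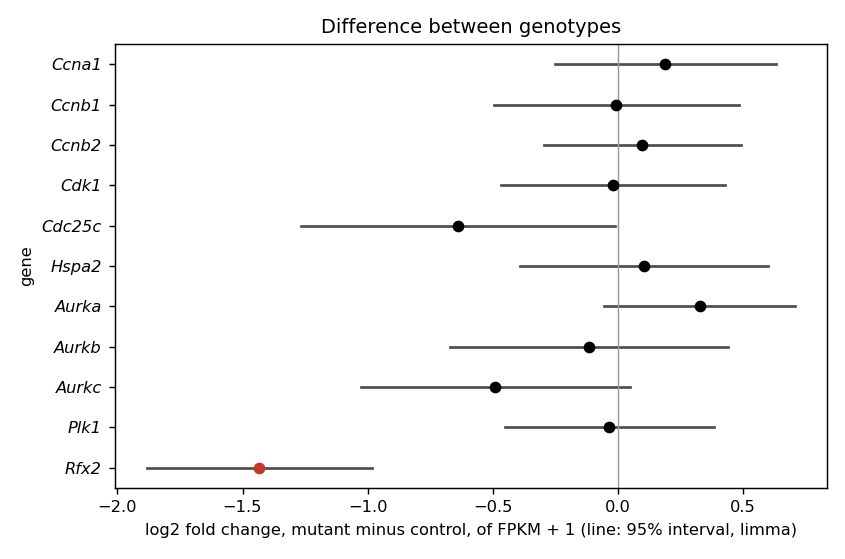
Log2 fold change, mutant minus control, of FPKM + 1 for the 10 genes and *Rfx2*; points are limma estimates from 2 mutant and 2 control samples, lines are 95% intervals, and red marks an adjusted p under 0.05. *Rfx2* stands at -1.43, while the 10 genes run from -0.64 (*Cdc25c*) to 0.33 (*Aurka*).

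The median absolute log2 difference was 0.26 between the mutants, 0.23 between the controls and 0.11 between the genotype means. The last sets means of 2 samples against each other, whereas the others compare single samples. It therefore tends to be smaller even where the genotypes do not differ. Over all genes tested these medians were 0.21, 0.22 and 0.13. *Aurkb* differed most between the mutants, by 0.52 on the log2 scale, and *Cdc25c* most between the controls, by 0.49. Mutant 1 was above mutant 2 for 8 of the 10 genes, all but *Hspa2* and *Aurkc*, and this held for 68.1% of all genes tested. Control 1 was above control 2 for 8 of the 10, all but *Cdk1* and *Aurkc*, against 41.0% of all genes tested. *Aurkc* was thus the single gene of the set that was lower in both libraries numbered 1. Among genes outside the lists, *Polr3c*, *4930528A17Rik* and *Armc5* had centred profiles over the 4 samples nearest to the median profile of the 10 genes, at root-mean-square distances of 0.0134, 0.0138 and 0.0139 on the log2 scale. That median profile was nearly flat, at 0.12 and -0.10 in the mutants and 0.066 and -0.11 in the controls. With 4 samples, closeness to it does not show shared regulation, which was not tested.

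Cell markers were read beside these values. The 12 markers of primary spermatocytes, the cells in which most of the 10 genes are read, summed to 1146 and 1090 FPKM in mutants and 950 and 1067 FPKM in controls, and 10 of 12 had a positive log2 fold change, as did 7443 of all 12985 genes tested. Markers of round spermatids (10 genes) summed to 547 and 940 FPKM in mutants and 779 and 647 FPKM in controls, with 5 positive. For elongating spermatids, 8 of 10 had a negative log2 fold change, and all 10 were lower in mutant 1 than in mutant 2. Spermatogonial markers (8 genes) summed to 109 and 87.1 FPKM against 74.9 and 112 FPKM, and Sertoli markers (9 of 10 listed) to 792 and 694 FPKM against 536 and 740 FPKM. Leydig markers (6 genes) summed to 418 and 235 FPKM against 369 and 135 FPKM, peritubular markers (5) to 84.7 and 86.9 FPKM against 77.0 and 109 FPKM, and macrophage markers (7) to 36.2 and 23.4 FPKM against 29.6 and 29.5 FPKM. Such sums follow their highest genes. *Insl3* alone gave 326 and 157 against 266 and 51.5 FPKM of the Leydig sums. *Clu* alone gave 556 and 492 against 368 and 500 FPKM of the Sertoli sums. All markers in the data but 1 Leydig and 1 macrophage gene passed the filter. Of those that passed, none had an adjusted p under 0.05 in limma, against 2.83% of all genes tested. None had an unadjusted p under 0.05, against 8.69%. The elongating-spermatid markers had a median log2 fold change of -0.54, and their lowest unadjusted p from limma was 0.0503. The part of cell composition in the values of the 10 genes was not tested.

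Within families, the share of each paralogue does not depend on scaling between samples. *Ccnb2* supplied 91.0% and 92.6% of B-type cyclin FPKM (*Ccnb1*, *Ccnb2* and *Ccnb3*) in mutants and 91.9% and 91.0% in controls, and *Ccnb1* the bulk of the remainder, at 7.18% and 6.27% against 7.14% and 7.27%. *Ccna1* made up 95.2% and 96.0% of A-type cyclin FPKM in mutants and 95.7% and 92.7% in controls, the rest being *Ccna2*. *Plk1* held 64.9% and 66.8% of Polo kinase FPKM against 68.2% and 60.6%. For these 4 shares the groups overlapped.

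The remaining shares separated. *Aurka* took 89.7% and 91.0% of Aurora FPKM in mutants and 86.7% and 85.2% in controls, a mean difference of 4.41 percentage points. *Aurkb* had 7.77% and 5.65% against 8.97% and 8.39%. *Aurkc* had 2.55% and 3.38% against 4.36% and 6.44%, a mean difference of -2.44 points, which was -1.39 without control 2 and -3.48 without control 1. The difference for *Aurkb*, -1.97 points, was -0.906 without mutant 2 and -3.03 without mutant 1. *Cdc25c* supplied 12.6% and 9.04% of CDC25 FPKM in mutants and 20.9% and 16.0% in controls, with *Cdc25a* as the main form, at 27.3 and 26.3 FPKM against 25.9 and 23.6 FPKM. Each of these 4 differences had p = 0.333 in a two-sided exact permutation test, the smallest that 2 against 2 samples allow, and 0.667 after Benjamini-Hochberg adjustment over the 8 shares compared. The 3 Aurora shares of a sample add to 100% and are not independent of each other.

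**Figure D4:**
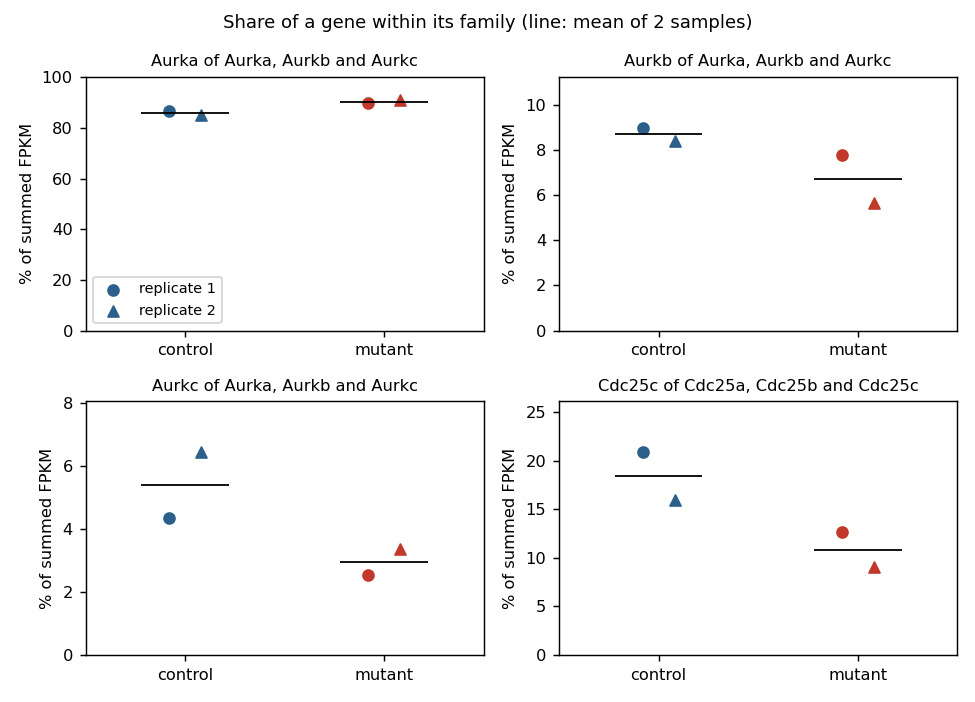
Percentage of the summed FPKM of its family supplied by *Aurka*, *Aurkb*, *Aurkc* and *Cdc25c* in each control (blue) and mutant (red) sample; circles are replicate 1, triangles replicate 2 and lines the mean of 2 samples. *Cdc25c* lies at 9.04% and 12.6% in mutants and at 16.0% and 20.9% in controls.

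Around these genes, 46 further regulators of the division phase were listed by role, and all 46 were in the data, *Bora* under the older name *6720463M24Rik*. *Wee2* (at most 0.037 FPKM) and *Plk3* (0.209 to 0.629 FPKM) were under the filter, and of the 44 tested none passed an adjusted p under 0.05 in limma and none an unadjusted p under 0.05, against 2.83% and 8.69% of all genes. Their median log2 fold change was 0.046, in a range from -0.28 to 0.21. The groups did not overlap for 8 of the 44, with mutants below in 5 (11.4%) and above in 3 (6.82%), each under the background given above.

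Of the enzymes that set the phosphorylation of CDK1, *Wee1* had 13.8 and 12.8 FPKM in mutants and 16.1 and 16.5 FPKM in controls. Its difference of -0.28 on the log2 scale was the lowest on the list (adjusted p = 0.991 from limma). *Pkmyt1*, the membrane-bound inhibitory kinase, overlapped between the groups at 37.9 and 35.3 against 35.3 and 29.0 FPKM. *Mastl*, the Greatwall kinase that restrains the opposing phosphatase, was low at 1.66 and 1.52 against 1.86 and 2.27 FPKM. Of the further roles, the widest log2 fold changes were -0.18 for *Ccne2* (cyclin E2), -0.083 for *Ccnh* (cyclin H of the CDK-activating kinase), -0.27 for *Plk2*, -0.16 for *Sgol1* (a shugoshin that protects cohesin) and 0.096 for *Cdkn1b* (the CDK inhibitor p27).

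In the chromosomal passenger complex, Aurora B or C binds INCENP, survivin (*Birc5*) and borealin (*Cdca8*). *Birc5* had 61.9 and 56.8 FPKM in mutants and 62.0 and 53.8 FPKM in controls, and *Cdca8* had 72.7 and 64.6 against 63.1 and 60.3 FPKM. *Incenp* ran from 20.9 to 25.8 FPKM over the 4 samples, so the transcript of each partner was above *Aurkb* and *Aurkc* in all samples. *Gsg2*, encoding the histone kinase haspin that marks centromeres for this complex, ran from 196 to 250 FPKM. It lies within *Itgae* on the opposite strand (10.8 to 12.5 FPKM), so that some reads could belong to either gene.

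In the spindle checkpoint, *Bub1*, *Bub1b*, *Bub3*, *Ttk*, *Mad1l1*, *Mad2l1* and *Nek2* overlapped between genotypes in all 7 cases, as did 8894 of the 12985 genes tested. Log2 fold changes were positive for 6 of the 7, none above 0.18. The 7 genes listed around the anaphase-promoting complex also overlapped throughout. *Pttg1*, encoding securin, had the highest value of the list at 0.21 (adjusted p = 0.9999 from limma), with 152 and 111 FPKM in mutants and 132 and 95.01 FPKM in controls. *Cdc20*, the activator of that complex at anaphase, had 93.5 and 81.5 against 83.5 and 74.8 FPKM.

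**Figure D5:**
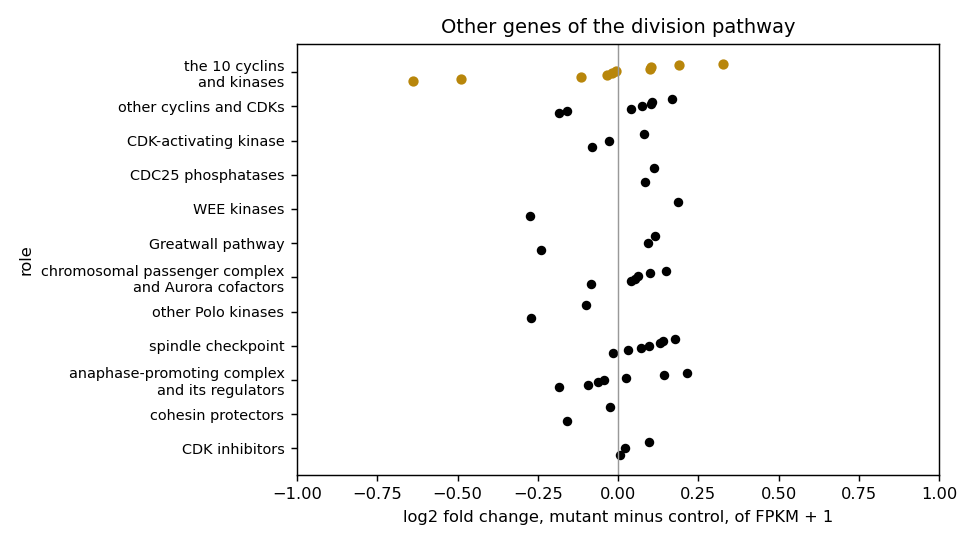
Log2 fold change, mutant minus control, of FPKM + 1 for 44 tested regulators of the division phase, 1 point per gene, in rows by role, with the 10 cyclins and kinases in the top row (gold). The 44 genes lie between -0.28 (*Wee1*) and 0.21 (*Pttg1*), inside the range of the 10 genes.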

How the data were processed

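Whole-testis RNA from 2 mutant and 2 control samples was sequenced on an Illumina HiSeq instrument. The authors aligned reads to mm9 with TopHat 2.0.6 (per the submitters' processing notes, which also name Cuffdiff) and assembled transcripts on the UCSC annotation with Cufflinks. They deposited FPKM per gene and sample with confidence bounds, normalized for gene length and depth. Fragment numbers were estimated from these bounds by taking the distance from the FPKM to its upper bound as 2 standard errors of a count. They do not cover the spread between samples. Nor are they plain counts. For *Rfx2* the bounds gave about 11000 fragments at 123 FPKM in control 1 but about 5406 at 89.4 FPKM in control 2.

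Entries sharing a symbol were summed. Genes with at least 1 FPKM in at least 2 samples were tested with limma 3.58.1 in R 4.3.3 on log2(FPKM + 1), a scale that understates changes of low genes, using two-sided moderated tests with an eBayes trend and adjusting p by Benjamini-Hochberg. The functions were tested on simulated data. Tables were made with python 3.11.15, pandas 2.3.3 and scipy 1.17.1. Genes named were *Rfx2*, the 10 genes, regulators on the list, first those with the largest absolute log2 fold change in each role, and the 3 nearest profiles. *Gm3550*, *Itgae*, *Insl3* and *Clu* were named after their values were seen. The 10 genes, lists and tests were chosen with earlier results of these data known. Alternatives were another pseudocount, other filters, scalings and eBayes settings, a replicate block, the highest entry per symbol and each sample left out. The labels call the samples of a genotype replicates and the study calls them independent. The limma p-values and intervals rest on the spread of a gene between these samples and on a variance shared across all genes tested. Gene overlaps come from GENCODE on NCBIM37, the same assembly as mm9.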

Additional observations from a re-analysis of the deposited data

How the results depend on the processing

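None of the 10 cyclins and kinases and none of the 44 other regulators had an adjusted p under 0.05 in limma in the main analysis or in any of 14 alternatives that tested them; a filter at 5 FPKM left *Cdc25c*, *Aurkc* and the low regulators untested. The replicate block took the numbers of the labels as pairs, although same-numbered samples deviated with a correlation of -0.15 across genes and share only a number. With the replicate block 0 of the 10 genes were called, while 525 genes in all were lower and 70 higher, against 327 and 40. The crossed replicate block, chosen after seeing the data, gave 0 of the 10, 266 lower and 28 higher. Over all genes tested, the lower and higher counts were 199 and 17 without a filter, 202 and 17 with a filter at 5 FPKM and 206 and 16 with median-ratio scaling, and 67 were higher with robust eBayes; the cause was not tested. Leaving out each sample gave 167 to 948 lower and 13 to 162 higher genes; with 1 sample left in a group, it is assumed to vary like the other group.

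Signs turned for 5 of the 10 genes and for 3 shares. With quantile normalization the log2 fold change was 0.044 for *Ccnb1*, 0.014 for *Cdk1* and 0.039 for *Plk1*, while the median of all genes moved from 0.032 to 0.081. With single samples left out it ran from -0.15 to 0.14 for *Ccnb1*, -0.015 to 0.21 for *Ccnb2*, -0.19 to 0.15 for *Cdk1*, -0.37 to 0.14 for *Aurkb* and -0.22 to 0.16 for *Plk1*, and the median of all genes ran from -0.047 to 0.096. The log2 fold change ran from -0.89 to -0.39 for *Cdc25c*, -0.67 to -0.31 for *Aurkc* and 0.24 to 0.41 for *Aurka*. The share of *Ccna1* ran from -0.082 to 2.92 points and that of *Plk1* from -2.39 to 5.30 points, mutant minus control; that of *Ccnb2* ran from -0.427 to 1.11 points. About 86.6 to 359 fragments per sample lay behind *Aurkc* and *Cdc25c*, which limits their precision.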
